A study of Sus scrofa with 2 samples.

Results

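The genes described here are 6 transcription factors of the pancreatic acinar cell: RBPJL, NR5A2, PTF1A, FOXP2, GATA4 and MKX. They were taken by symbol from a fixed list of names, and all 6 were found among the 31908 genes of the count matrices. Their transcripts were followed across the acinar, ductal, endocrine and stromal nuclei of a pig pancreas, in each of 2 libraries.

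Acinar cells make and store the digestive enzymes, and their gene program is held by a small set of factors that also control one another. The PTF1 complex sits at its centre. It joins the basic helix-loop-helix protein PTF1A, an E protein partner such as TCF3 or TCF12, and RBPJL, a relative of the Notch effector RBPJ that takes the place of RBPJ in mature acinar cells. NR5A2, an orphan nuclear receptor, works with this complex on enzyme genes, and GATA4, a zinc finger factor, is needed with GATA6 in early pancreatic growth. FOXP2 is a forkhead repressor best known from the brain and lung, and MKX is a homeodomain factor best known from tendon.

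The study prepared nuclei from the pancreas of 1 wild-type (WT) pig and 1 transgenic PIGinH11 pig, both of them Bama pigs. From each pig, 1 piece (about 0.2 g) was taken at a similar location. The PIGinH11 pig carries human GIPRdn, hIAPP and PNPLA3 I148M at the H11 locus under promoters of beta cells or liver, so the knocked-in genes were not directed to acinar cells. Both pigs were 18 months old, and both had eaten a control diet to the age of 6 months and then for 12 months HFHSD, a diet made of 10% pork lard, 37% sucrose and 53% of the control diet. Each group thus had 1 animal and 1 library, so no test between the groups was possible, every interval below covers counting error only, and the effect of the transgenes cannot be told apart from differences between 2 animals or 2 preparations.

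In single-nucleus RNA sequencing, each molecule carries a unique molecular identifier (UMI), and the matrices hold UMI counts. The WT library was the deeper, with 55784067 UMIs in 13619 barcodes against 26228811 UMIs in 14964 barcodes for PIGinH11, and a median of 3216 against 1181.5 UMIs per barcode. After filters, 11854 and 13126 nuclei were retained and grouped into 8 classes by markers that do not include the 6 factors. All 9 acinar naming markers and all 10 ductal naming markers marked their clusters. The acinar-like class held 8445 WT and 8910 PIGinH11 nuclei and the ductal-like class 2147 and 2195, while the other classes held from 38 to 520 nuclei per library. A further cluster of 350 WT and 515 PIGinH11 nuclei, led by digestive enzyme genes, stayed unnamed. The libraries shared 60 barcodes, 46 of them among retained nuclei.

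RBPJL (ENSSSCG00000037156), the DNA-binding subunit of the mature PTF1 complex, lies at chr17:47631432-47642169 of Sscrofa11.1. Its level in acinar-like nuclei was 1856 UMIs per 1000000 UMIs of the class (CPM; exact Poisson 95% interval 1841 to 1872) in WT and 2549 CPM (2524 to 2575) in PIGinH11. The next class was mural-like in WT, at 425 CPM, and schwann-like in PIGinH11, at 773 CPM, so that the acinar-like level was 4.37-fold and 3.30-fold above it. Ductal-like nuclei held the lowest level of the 8 classes in both libraries, 52.8 CPM in WT and 134 CPM in PIGinH11. The acinar-like level of RBPJL was above the ductal-like one by 5.14 on the log2 scale in WT and 4.25 in PIGinH11. These differences were 3.01 and 2.31 without doublet removal, the lowest of the alternative settings tried.

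PTF1A (ENSSSCG00000030662; chr10:51817697-51820147), the DNA-binding bHLH subunit of the same complex, was a sparse transcript. Its counts in acinar-like nuclei were 449 UMIs in WT, or 14.9 CPM (13.5 to 16.3), and 348 UMIs in PIGinH11, or 22.5 CPM (20.2 to 24.97). Ductal-like nuclei had 12 UMIs in WT (1.40 CPM, 0.722 to 2.44) and 9 in PIGinH11 (2.72 CPM, 1.24 to 5.16), with intervals wholly below the acinar-like ones. In the other classes PTF1A had from 0 to 9 UMIs per library, and their intervals were so wide that the order among them could not be read. On 0 or 1 UMI each, the intervals of the mural-, macrophage- and schwann-like classes in WT, and of the mural- and schwann-like classes in PIGinH11, overlapped that of the acinar-like class, so the rank of PTF1A against these classes is not firm.

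NR5A2 (ENSSSCG00000024975; chr10:22727865-22866905) was the exception among the 6, since it was as high in ductal-like as in acinar-like nuclei. The acinar-like level was 837 CPM (827 to 847) in WT and 951 CPM (935 to 966) in PIGinH11. The ductal-like level was 867 CPM (847 to 887) in WT and 979 CPM (945 to 1013) in PIGinH11. The intervals of the levels overlapped within each library. The log2 ratio of acinar-like over ductal-like was -0.05 (-0.09 to -0.01) in WT and -0.04 (-0.10 to 0.01) in PIGinH11. The sign of this small difference turned under other denominators and depths, with log2 ratios from -0.17 to 0.05 in WT and from -0.06 to 0.17 in PIGinH11. All other classes were lower, from 47.6 to 220 CPM in WT and from 118 to 249 CPM in PIGinH11, with endocrine-like nuclei lowest in WT and stellate-like nuclei lowest in PIGinH11.

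GATA4 (ENSSSCG00000022383; chr14:14858470-14938156) was found mainly in acinar-like nuclei, at 353 CPM (346 to 360) in WT and 377 CPM (368 to 387) in PIGinH11. Schwann-like nuclei came next in both libraries, at 155 CPM on 24 UMIs and 99.8 CPM on 12 UMIs, and their intervals lay below the acinar-like ones. Ductal-like nuclei had 37.7 CPM in WT and 37.4 CPM in PIGinH11. For GATA6, its family relative, the order of these classes differed between the libraries. The GATA6 level was 319 CPM in acinar-like against 358 CPM in ductal-like nuclei of WT, where ductal-like nuclei were highest, and 408 against 244 CPM in PIGinH11, where acinar-like nuclei were highest.

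FOXP2 (ENSSSCG00000016639; chr18:31335102-31890523) had an acinar-like level of 1843 CPM (1828 to 1858) in WT and 1806 CPM (1785 to 1828) in PIGinH11. It was also present in stellate-like nuclei, the fibroblast-like cells of the pancreas, at 547 CPM (495 to 602) in WT and 997 CPM (906 to 1095) in PIGinH11. The acinar-like level was therefore only 3.37-fold and 1.81-fold above the next class. Among the islet classes, FOXP2 was higher in delta-like nuclei (642 CPM in WT and 564 CPM in PIGinH11) and alpha-like nuclei (335 and 412 CPM) than in beta-like nuclei (87.9 and 150 CPM), and the beta-like intervals did not overlap those of either class. Gamma-like nuclei had 751 CPM (570 to 971) in PIGinH11 and 213 CPM (91.8 to 419) on 8 UMIs in WT.

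MKX (ENSSSCG00000029783; chr10:39096778-39173384) was the factor whose acinar-like level differed most between the libraries, at 162 CPM (158 to 167) in WT and 62.7 CPM (58.8 to 66.7) in PIGinH11. In WT, macrophage-like nuclei followed at 41.3 CPM on 9 UMIs. In PIGinH11, schwann-like nuclei followed at 24.9 CPM on 3 UMIs, with an interval of 5.15 to 72.9 CPM that overlapped the acinar-like one. Ductal-like nuclei held 6.17 CPM in WT and 7.54 CPM in PIGinH11.

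**Figure D1:**
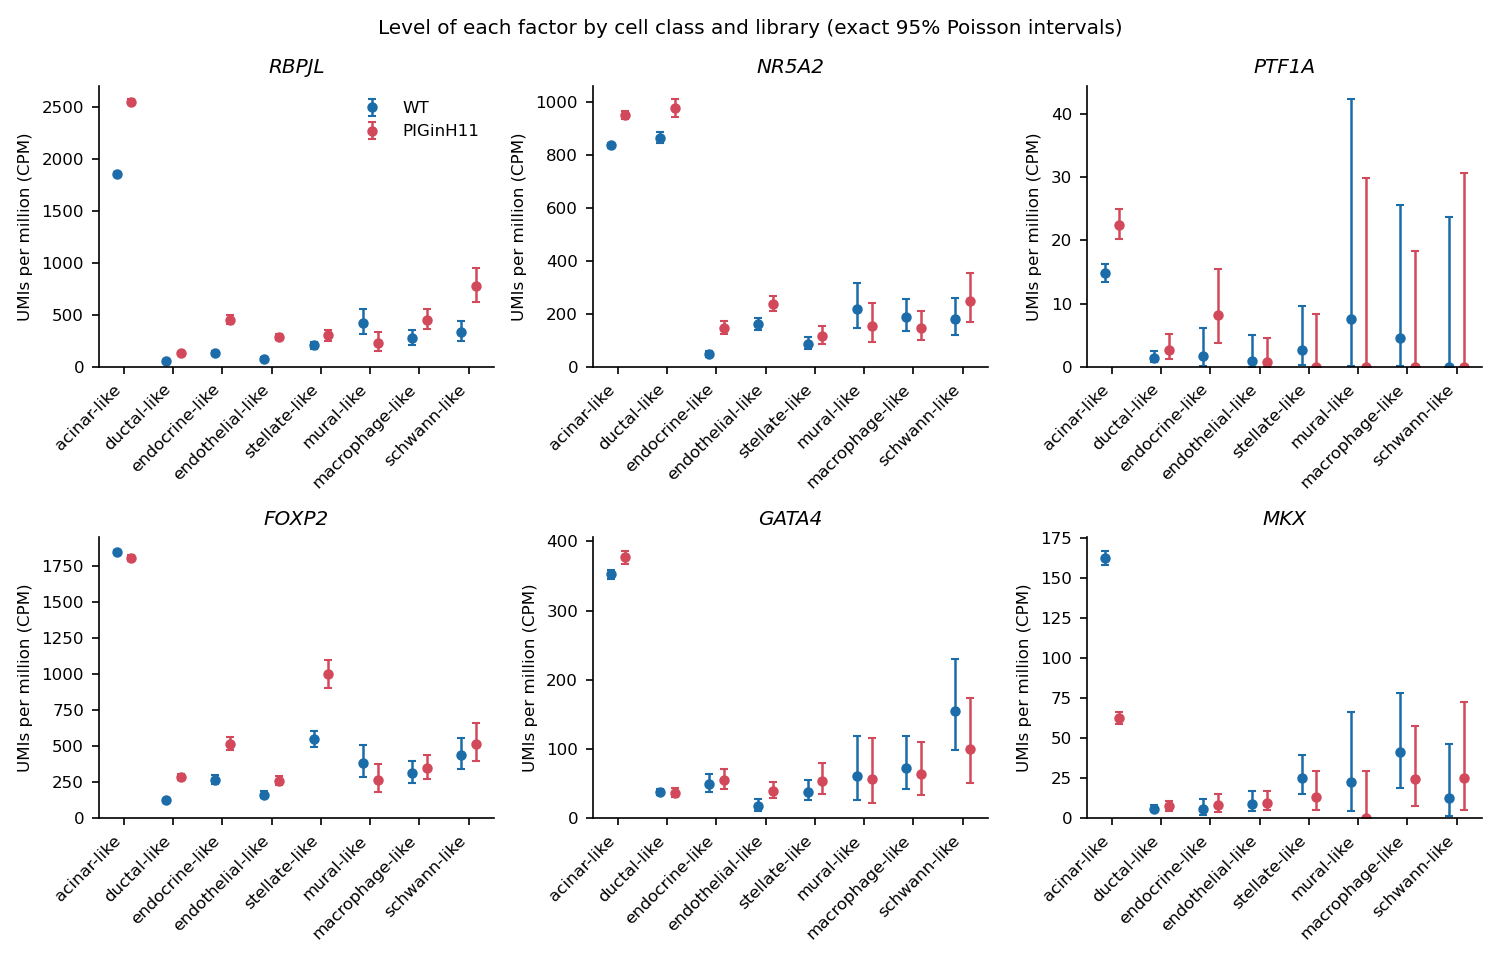
Level of each of the 6 factors (y axis, CPM) in 8 cell classes (x axis) of the WT library (blue) and the PIGinH11 library (red); points are 1 library each and bars are exact 95% Poisson intervals, which cover counting error only. RBPJL, PTF1A, FOXP2, GATA4 and MKX were highest in acinar-like nuclei of both libraries, NR5A2 was as high in ductal-like nuclei, and the MKX points of the acinar-like class lie at 162 CPM in WT and 62.7 CPM in PIGinH11.

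By this order of levels, 5 of the 6 factors were highest in acinar-like nuclei in both libraries, and NR5A2 was not. Among all 15721 genes with at least 20 UMIs in the acinar-like nuclei of each library, 7.61% met the same rule. The same 5 factors were at least 2-fold higher in acinar-like than in ductal-like nuclei of both libraries, a rule met by 12.3% of those genes. The 6 were listed as acinar factors with earlier results of these data known, so these counts are a description and no test of the list. UMI sums of different genes depend on transcript ends and gene length as well as on abundance, so the levels of the 6 factors were not ranked against each other.

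UMIs of acinar marker genes were found in every class, so each factor was set beside the 9 acinar naming markers (CHN2, EFEMP1, CDH4, AGMAT, EXTL1, ADAD1, RBMS2, GRB10 and KCNMA1) measured in the same nuclei. In ductal-like nuclei these markers stood at 2.58% to 6.24% of their acinar-like level in WT and at 5.37% to 9.39% in PIGinH11. RBPJL, at 2.84% and 5.24%, lay within this range in WT and below it in PIGinH11, and in none of the 14 pairs of another class and a library did RBPJL exceed the highest marker. Outside acinar-like nuclei, RBPJL thus stayed within or below the range of the acinar markers in these 7 classes. The highest marker in endocrine-like nuclei was KCNMA1, which beta-like nuclei held at 2789 CPM in WT and 4419 CPM in PIGinH11, so it is a loose limit there. RBPJL in endocrine-like nuclei stood at 7.28% and 17.9%, below the marker medians of 10.5% and 19.3%. In endothelial-like nuclei it stood at 4.36% and 11.4%, below the medians of 7.18% and 15.8%.

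Other factors exceeded that range in some classes. NR5A2 in ductal-like nuclei stood at 104% of its acinar-like level in WT and 103% in PIGinH11. FOXP2 exceeded the highest marker in ductal-like nuclei (6.86% and 15.8%) and in stellate-like nuclei, where it stood at 29.7% against a marker maximum of 20.8% in WT and at 55.2% against 21.2% in PIGinH11. GATA4 in ductal-like nuclei, at 10.7% and 9.92%, was above the highest marker in WT and slightly above it in PIGinH11. PTF1A at 9.41% and 12.1% in ductal-like nuclei, and MKX at 25.4% and 39.5% in macrophage-like nuclei, were above the markers in both libraries too, but rested on 5 to 12 UMIs per library. Over the 14 pairs, the number above every marker was 0 for RBPJL, 3 for NR5A2 and GATA4, and 4 for PTF1A, FOXP2 and MKX. The PTF1A count includes mural- and macrophage-like nuclei of WT on 1 UMI each, and the MKX count stellate-like nuclei of PIGinH11 on 6 UMIs.

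**Figure D2:**
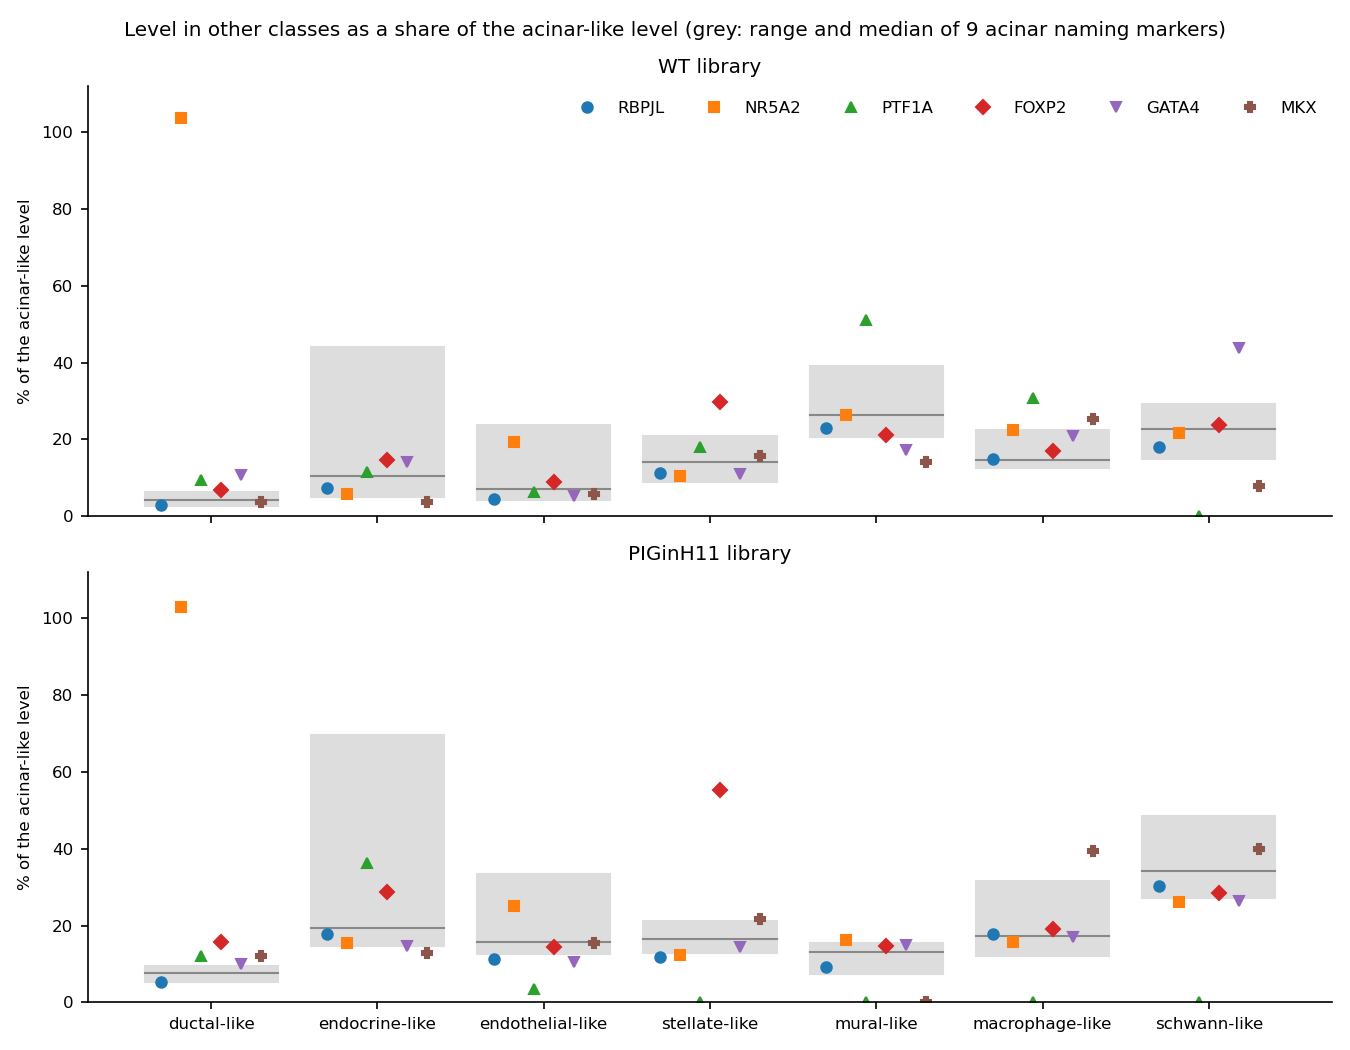
Level of each factor in 7 other classes (x axis) as a percentage of its own level in acinar-like nuclei (y axis), for the WT library (top) and the PIGinH11 library (bottom); grey boxes span the 9 acinar naming markers in the same nuclei and the grey line is their median. NR5A2 lies at 104% and 103% in ductal-like nuclei, FOXP2 lies above the box in ductal-like and stellate-like nuclei of both libraries, and RBPJL never lies above it.

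Detection of the factors was also counted per nucleus. To compare libraries of unequal depth, each nucleus was thinned to 500 UMIs, and no nucleus had to be left out. RBPJL was then detected in 57.8% of acinar-like nuclei in WT and 67.3% in PIGinH11, against 92.4% and 88.2% before thinning. In endothelial-like nuclei, which should lack it, 3.27% in WT and 15.8% in PIGinH11 had an RBPJL UMI after thinning, and 13.1% and 35.2% before it, at median depths of 3860 and 1719 UMIs. FOXP2 was detected in 55.1% and 52.6% of thinned acinar-like nuclei, NR5A2 in 30.8% and 34.5%, and GATA4 in 15.0% and 15.6%. MKX was detected in 6.84% in WT and 2.84% in PIGinH11, and PTF1A in 0.793% and 1.27%.

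At least 3 of the 6 factors were detected together in 18.2% of thinned acinar-like nuclei in WT and 20.2% in PIGinH11. The share was 0.0932% and 0.683% in ductal-like nuclei. In endothelial-like nuclei it was 0 of 275 in WT, which allows a share of up to 1.09%, and 2.50% of 520 in PIGinH11. None of the 6 was detected in 10.3% and 8.89% of thinned acinar-like nuclei and in 57.8% and 50.4% of thinned ductal-like nuclei. These joint shares were not set beside those that the single detection rates alone would give. They therefore show no link between the factors within nuclei. NR5A2 was the factor detected most often in ductal-like nuclei, in 33.7% of WT and 33.8% of PIGinH11, followed by FOXP2 in 7.45% and 14.5%.

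Between the libraries, the levels of the 6 factors in acinar-like nuclei were for the most part within 2-fold of each other, and MKX was not. The log2 ratio of PIGinH11 over WT, with a conditional binomial 95% interval, was -1.37 (-1.47 to -1.27) for MKX, which was 2.59-fold higher in WT. With at least 2-fold as the limit, 1 of the 6 factors was lower in PIGinH11, where 2.18% of the 15721 genes were lower, and 0 of the 6 were higher, where 16.6% of the genes were higher. The median over all these genes was 0.22 and the median of the 6 factors was 0.14.

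RBPJL and PTF1A, the paired subunits of the PTF1 complex, were both higher in PIGinH11, by 0.46 (0.44 to 0.48) and 0.60 (0.39 to 0.80) on the log2 scale. Relative to the median of all genes they were higher by 0.23 and 0.38. The ratio was 0.18 (0.15 to 0.21) for NR5A2 and 0.10 (0.05 to 0.14) for GATA4, which became -0.04 and -0.13 relative to the median, so that the sign for these 2 genes depended on the scaling. FOXP2 had a ratio of -0.03 (-0.05 to -0.01), or -0.25 relative to the median. MKX stood at -1.60 relative to the median and was below 0 in all 14 alternative settings, from -1.62 to -0.57, although 3 of these settings left it within 2-fold. RBPJL was above 0 in all 14, from 0.23 to 0.62.

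**Figure D3:**
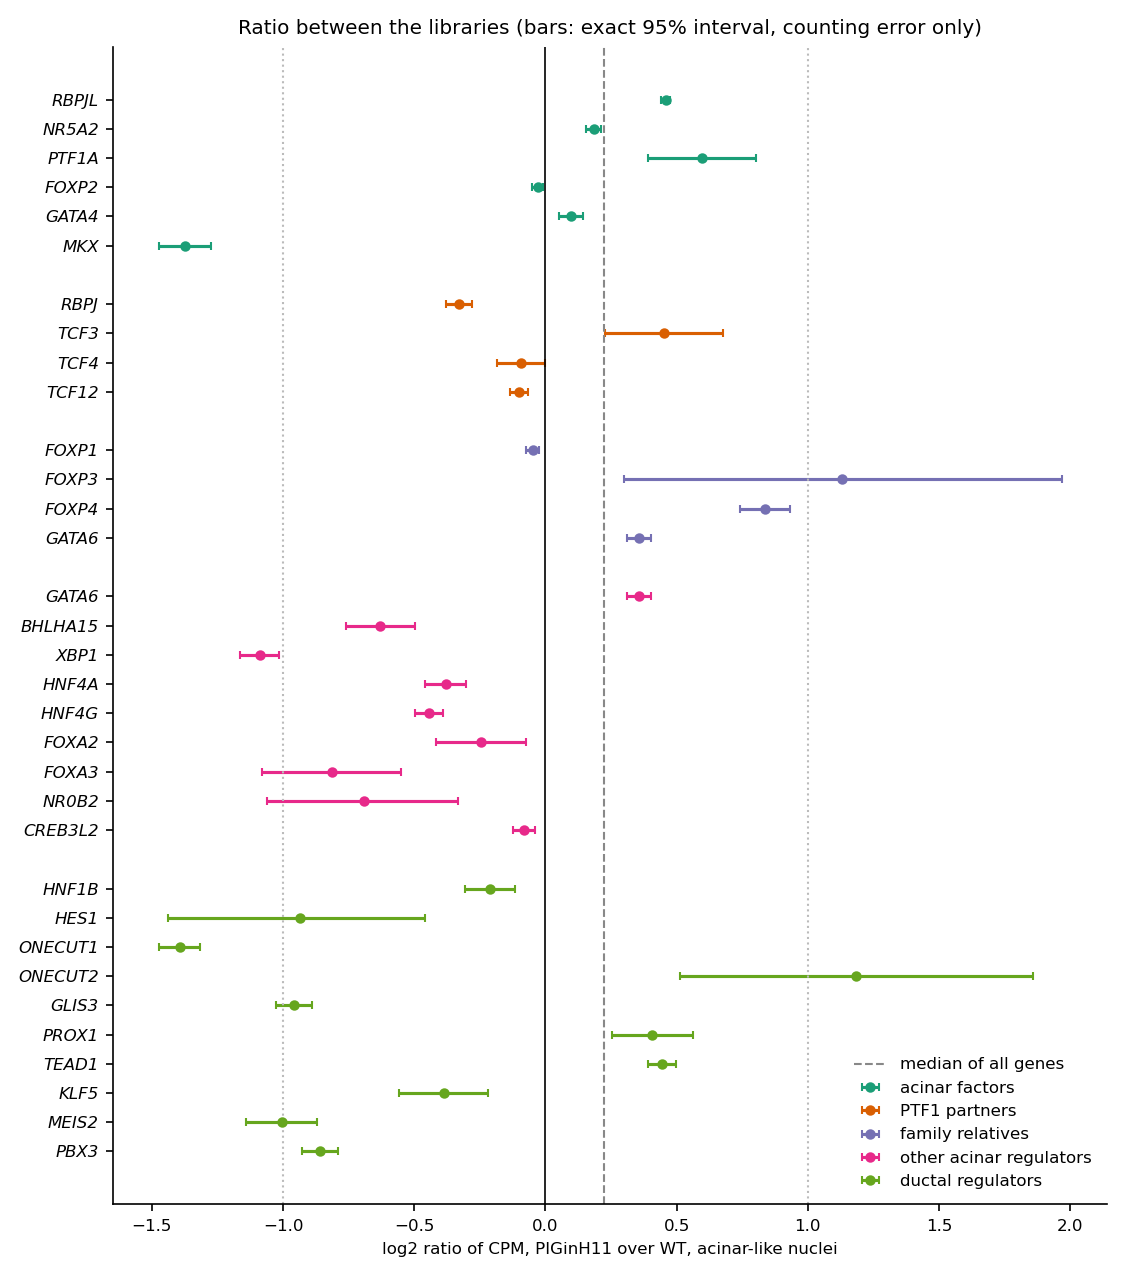
Ratio of the libraries in acinar-like nuclei (x axis, log2 of the CPM of PIGinH11 over WT) for the 6 factors and for 4 lists of other regulators (y axis, one gene per row, coloured by list; GATA6 belongs to 2 lists), with exact 95% intervals for counting error; the dashed line is the median of all genes (0.22) and the dotted lines mark 2-fold. MKX, at -1.37, is the one factor of the 6 beyond a dotted line.

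The difference in MKX was present in each part of the acinar-like class that could be compared. Of its 7 clusters, 6 held at least 20 nuclei in each library. MKX was lower in PIGinH11 in all 6, with intervals below 0, from -0.69 in cluster 3 (100 against 62.3 CPM) to -2.14 in cluster 4 (248 against 56.5 CPM). The PIGinH11 levels lay between 37.4 and 67.9 CPM in these clusters, whereas the WT levels ran from 100 to 248 CPM. The highest-to-lowest fold over the clusters was 2.48 in WT and 1.82 in PIGinH11, and the WT clusters other than cluster 4 lay between 100 and 140 CPM.

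Cluster 4 carried weight in this result. Its leading genes include HSP70.2, a stress-induced chaperone gene, which stood at 1313 CPM in WT and 19.0 CPM in PIGinH11 within the cluster. Without cluster 4, MKX was 123 CPM in WT and 63.7 CPM in PIGinH11, a log2 ratio of -0.95 (-1.06 to -0.83), which no longer passed the 2-fold limit. Within WT acinar-like nuclei of 1000 to 2000 UMIs, MKX was 121 CPM (103 to 142) in the 830 nuclei with an HSP70.2 UMI and 106 CPM (91.8 to 123) in the 1229 nuclei without one, and these intervals overlapped. The WT nuclei of cluster 4 had a median of 4605 UMIs, so this depth band left out most of them and the split does not describe that cluster. The part of the stress genes in the MKX difference was not tested beyond these values.

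The other factors had highest-to-lowest folds of 1.38 to 1.70 over these clusters. RBPJL was higher in PIGinH11 in all 6 clusters, with log2 ratios from 0.27 to 0.63. NR5A2 was higher in 5 of 6 and PTF1A in 4 of 6, and the intervals of the rest held 0. GATA4 was higher in 2, with 4 intervals that held 0. FOXP2 was higher in 2, lower in 2 and held 0 in 2, from -0.29 in cluster 3 to 0.39 in cluster 9. The highest FOXP2 level lay in cluster 5 in both libraries, at 2162 CPM in WT and 2164 CPM in PIGinH11, and GATA4 was also highest there, at 401 and 413 CPM.

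**Figure D4:**
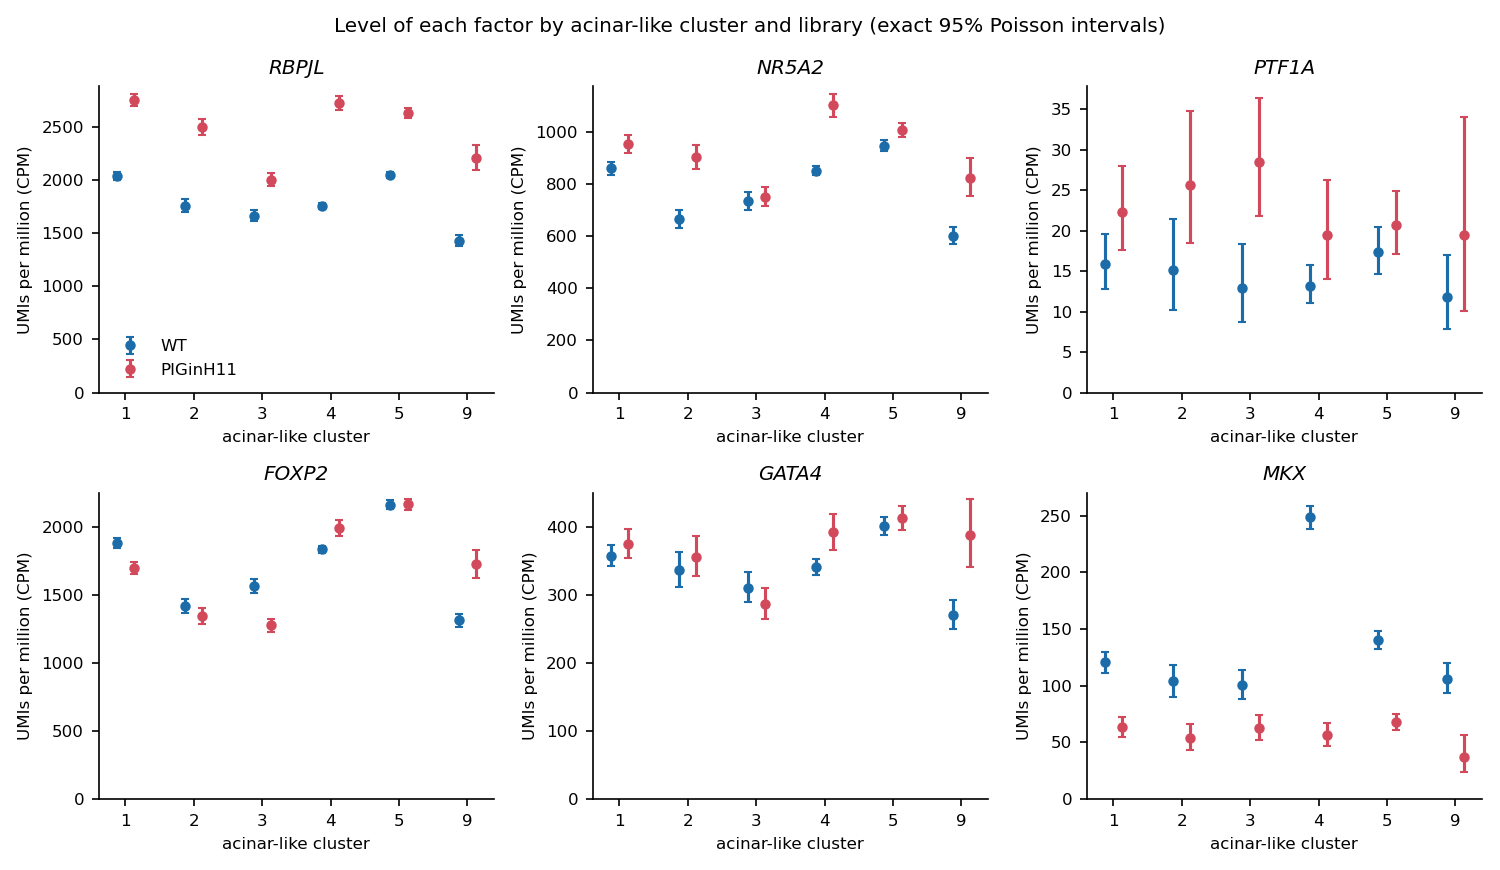
Level of each factor (y axis, CPM) in the 6 acinar-like clusters with at least 20 nuclei in each library (x axis, cluster number) for WT (blue) and PIGinH11 (red), with exact 95% Poisson intervals for counting error. RBPJL is higher in PIGinH11 in all 6 clusters, and MKX is lower in all 6, with the WT point of cluster 4 at 248 CPM.

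The library difference in MKX also differed between groups of nuclei of unlike depth. When the acinar-like nuclei of each library were divided into 4 groups of equal size by UMI number, MKX in WT stood at 110 UMIs per 1000000 non-secretory UMIs (96.4 to 126) in the shallowest group and at 192 (185 to 200) in the deepest, a ratio of 1.74 (1.52 to 2.01). In PIGinH11 the same groups stood at 58.8 (46.7 to 73.1) and 68.2 (62.5 to 74.3), a ratio of 1.16 (0.916 to 1.48) whose interval held 1. The log2 ratio between the libraries ran from -0.91 in the shallowest groups to -1.496 in the deepest. The groups of the libraries had unequal depths, with medians of 1083 to 6836 UMIs in WT and 650 to 3173 UMIs in PIGinH11. In nuclei of 1000 to 2000 UMIs from both libraries, the ratio was -0.84 (-1.07 to -0.61). Cluster 4 was not set apart in the depth groups. In WT it had MKX at 248 CPM and a median of 4605 UMIs. The deeper WT clusters 5 and 9, with medians of 5841.5 and 6799 UMIs, had MKX at 140 and 106 CPM. The parts of depth and cluster were not tested.

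The factors also differed in how they followed the share of UMIs that came from digestive enzyme and other secretory genes. In PIGinH11, RBPJL stood at 2209 (2154 to 2264) per 1000000 non-secretory UMIs in the 1 of 4 groups with the lowest share and at 2991 (2942 to 3041) in that with the highest, a ratio of 1.35 (1.31 to 1.40). In WT the same groups stood at 1928 and 1945, a ratio of 1.01 (0.983 to 1.03). MKX in WT went the other way, from 210 to 134, a ratio of 0.638 (0.581 to 0.700), and in PIGinH11 the ratio was 0.927 with an interval that held 1. In WT the median depth fell from 5008.5 to 1325 UMIs between these groups and in PIGinH11 it went from 983 to 1717, so share and depth cannot be told apart here. Cluster 4 was not set apart in these groups either.

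**Figure D5:**
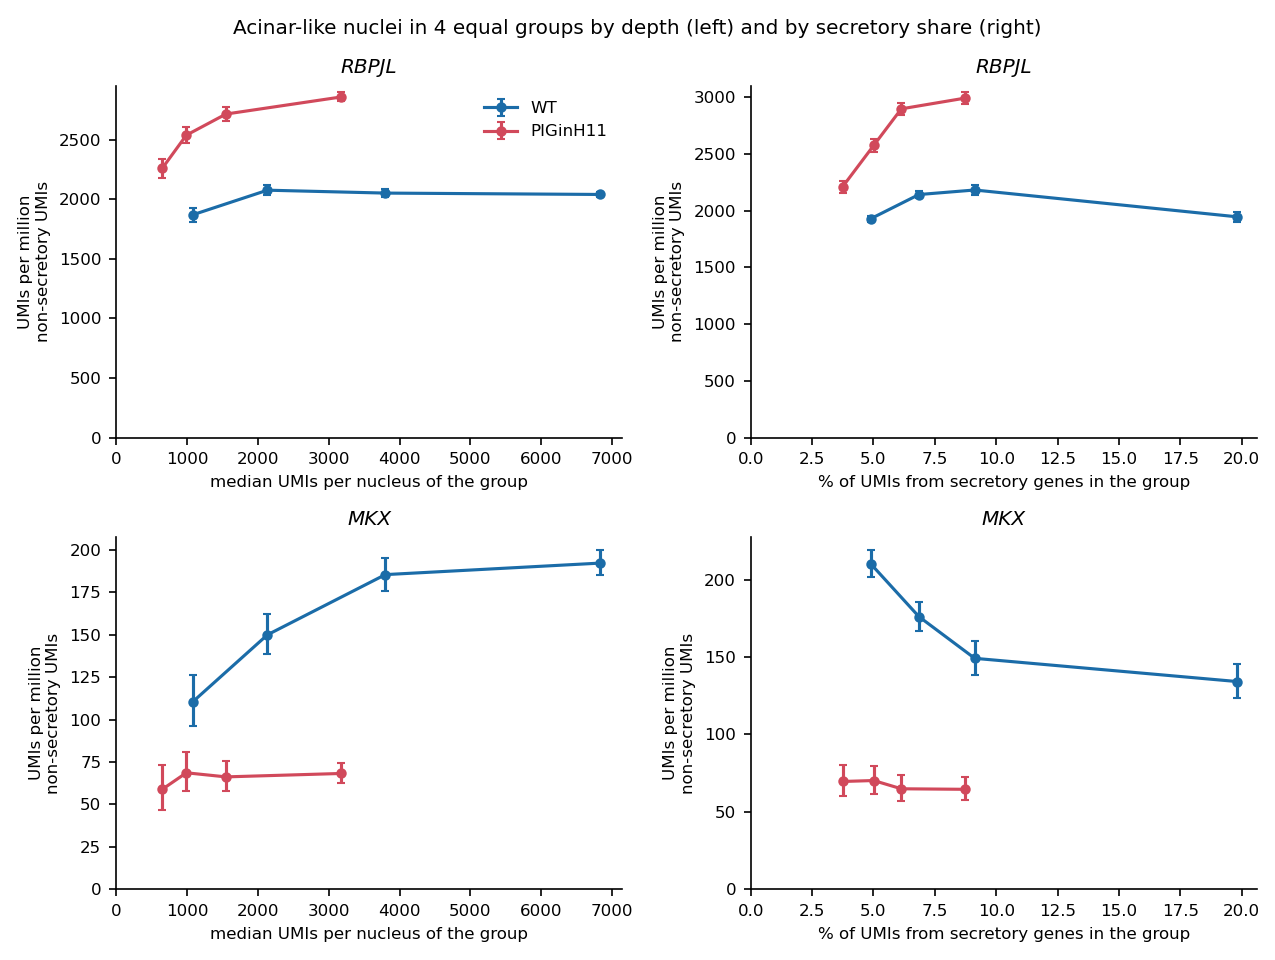
RBPJL (top) and MKX (bottom) in acinar-like nuclei (y axis, UMIs per 1000000 non-secretory UMIs, with exact 95% Poisson intervals) in 4 groups of equal size by depth (left; x axis, median UMIs per nucleus) and in 4 groups by secretory share (right; x axis, % of UMIs from secretory genes), for WT (blue) and PIGinH11 (red). MKX in WT runs from 110 to 192 over the depth groups, and RBPJL in PIGinH11 runs from 2209 to 2991 over the groups by secretory share.

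In ductal-like nuclei, RBPJL and FOXP2 were past the 2-fold limit, both higher in PIGinH11, when nuclei of all depths were used. RBPJL had a log2 ratio of 1.34 (1.15 to 1.53), from 52.8 to 134 CPM, and FOXP2 of 1.18 (1.05 to 1.30), from 126 to 286 CPM. Neither passed the limit in nuclei of 1000 to 2000 UMIs, where RBPJL was 0.54 (0.06 to 1.03) and FOXP2 was 0.25 (-0.05 to 0.56), or with a UMI limit of 1300, where they were 0.36 and 0.44. Of the 5 factors with at least 20 UMIs in each library, 2 were thus at least 2-fold higher, where 11.8% of 11159 genes were, and 0 were lower, where 1.82% were. NR5A2, the factor as high in ductal-like as in acinar-like nuclei, was 0.18 (0.12 to 0.23). GATA4 stood at -0.01 and MKX at 0.29, both with intervals that held 0. The 9 acinar naming markers moved with RBPJL in these nuclei, with a median of 0.76, a range of -0.24 to 1.18 and 8 of 9 intervals above 0, and their median in endothelial-like nuclei was 0.89. The part of acinar RNA in the ductal-like ratios was not tested.

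The endocrine-like class held an unnamed group of 48 WT and 169 PIGinH11 nuclei in which acinar factors were high. Of these, 47 WT and 151 PIGinH11 nuclei formed 1 cluster whose best match was the acinar naming markers, with 7 of 9 met. It was left unnamed for that reason, so high acinar genes were partly built into this group. In WT, RBPJL stood at 612 CPM there and at 64.5 CPM in the named alpha-, beta-, delta- and gamma-like nuclei, a log2 ratio of 3.25 (2.78 to 3.72). In PIGinH11 the levels were 1877 and 110 CPM, a log2 ratio of 4.09 (3.77 to 4.42). NR5A2 followed, at 197 against 25.4 CPM in WT (2.96, 2.15 to 3.77) and 522 against 56.2 CPM in PIGinH11 (3.22, 2.72 to 3.73). FOXP2 differed less, by 1.65 in WT and 1.79 in PIGinH11.

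The acinar naming markers other than KCNMA1 were also higher in this unnamed group, and KCNMA1 had log2 ratios of -0.15 (-0.34 to 0.03) in WT and 0.08 (-0.05 to 0.21) in PIGinH11. The highest marker ratio was 3.29 in WT and 3.43 (ADAD1, 3.01 to 3.86) in PIGinH11. RBPJL lay within the range of the markers in WT. In PIGinH11 it lay above the highest marker, but the 2 intervals overlapped. In the larger cluster of this group in PIGinH11, RBPJL stood at 76.7% of its acinar-like level. The markers there ran from 53.0% to 103%, with a median of 60.9%. The highest was CDH4, which alpha-like nuclei of PIGinH11 also held, at 906 CPM. CHN2 and KCNMA1 were likewise high in gamma-like and beta-like nuclei of that library, at 3899 and 4419 CPM. The upper end of this range is therefore a loose limit. Among WT nuclei of 1000 to 2000 UMIs, where 16 unnamed nuclei remained, the log2 ratio of RBPJL was -0.58 with an interval of -3.88 to 1.82. The part of mixed droplets in this group was not tested.

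The partners of PTF1A were highest in classes other than the acinar-like one. RBPJ, which RBPJL replaces, was highest in macrophage-like nuclei, at 1991 CPM in WT and 2126 CPM in PIGinH11, against 376 and 299 CPM in acinar-like nuclei. TCF4, an E protein, was highest in endothelial-like nuclei at 3017 and 2479 CPM. None of the 4 partners, RBPJ, TCF3, TCF4 and TCF12, was highest in acinar-like nuclei in both libraries or past the 2-fold limit between them, and their median log2 ratio was -0.10. Of all genes, 7.61% were highest in acinar-like nuclei in both libraries, 16.6% were at least 2-fold higher in PIGinH11 and 2.18% lower. With 4 genes, these counts do not set the partners apart from other genes. Of 4 testable family relatives (FOXP1, FOXP3, FOXP4 and GATA6), FOXP4 was highest in acinar-like nuclei, at 61.3 CPM in WT and 109 CPM in PIGinH11. FOXP3 was past the limit at 1.13, on 25 and 28 UMIs, but not relative to the median of all genes, without doublet removal, in thinned nuclei, in nuclei of 1000 to 2000 UMIs or without cluster 4.

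Of 9 other acinar regulators, 4 were highest in acinar-like nuclei in both libraries, a rule met by 7.61% of all genes: BHLHA15, XBP1, HNF4G and NR0B2. XBP1, a factor of the unfolded protein response that enzyme-secreting cells need, was 246 CPM in WT and 116 CPM in PIGinH11, a log2 ratio of -1.09 (-1.16 to -1.01). It was the 1 regulator of this list past the limit, where 2.18% of all genes were lower and 16.6% higher. Relative to the median of all genes, 2 were lower, where 3.77% of all genes were. The other regulators ran from -0.81 to 0.36, and the median of the list was -0.44. BHLHA15, which shapes the secretory apparatus of acinar cells, was 63.0 and 40.7 CPM, a log2 ratio of -0.63 that did not pass the limit. XBP1 was also lower in ductal-like nuclei of PIGinH11, at 71.6 CPM in WT and 30.2 CPM in PIGinH11. Its log2 ratio there was -1.25 (-1.57 to -0.94), past the limit, where 1.82% of genes were lower.

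Of 10 testable regulators of ductal cells, none was highest in acinar-like nuclei in both libraries, where 7.61% of all genes were. Their median log2 ratio in acinar-like nuclei was -0.62. Past the limit were 2 downwards and 1 upwards, where 2.18% and 16.6% of all genes were. Relative to the median of all genes, 5 were past it downwards and 0 upwards, where 3.77% and 10.7% of all genes were. ONECUT1, a homeodomain factor of pancreatic progenitors and ducts, was 260 CPM in WT and 98.7 CPM in PIGinH11 acinar-like nuclei, a log2 ratio of -1.39 (-1.47 to -1.32) close to that of MKX. MEIS2 was 72.7 and 36.2 CPM (-1.004), at the limit, and missed it in most alternative settings, among them those without doublet removal, with a gene minimum of 500 and without Harmony. It passed at Louvain resolution 2, with median-of-ratios scaling and in nuclei of 1000 to 2000 UMIs. It also passed without secretory, ribosomal protein and mitochondrial genes in the denominator. ONECUT2 was 1.18 on 37 and 43 UMIs. SOX9, not testable in acinar-like nuclei, was 35.8 CPM in WT and 10.6 CPM in PIGinH11 ductal-like nuclei. That was a log2 ratio of -1.76 (-2.31 to -1.25), past the limit, where 1.82% of genes were lower in ductal-like nuclei. Against the 2.18% of genes that were lower in PIGinH11, these lists were small, and no list was tested.

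The secretory genes that PTF1, RBPJL and NR5A2 are known to drive went in both directions. Of 15 testable genes, 12 were highest in acinar-like nuclei in both libraries, against 7.61% of all genes. Of the 15, 3 were at least 2-fold higher in PIGinH11 and 3 at least 2-fold lower, against 16.6% and 2.18% of all genes, and the median was -0.52. Relative to the median of all genes, 2 were higher and 4 lower. The trypsinogen gene PRSS2 was lower by 2.49 on the log2 scale, the elastase gene CELA2A had a ratio of -1.74 and the chymotrypsin gene CTRC of -1.10. The lipase genes PNLIP and PNLIPRP1 had ratios of 1.45 and 1.46, and GP2, a zymogen granule membrane protein gene, of 1.01 (0.99 to 1.03). GP2 was thus at the limit. It missed the limit in several alternative settings, among them a gene minimum of 500, median-of-ratios scaling, thinned nuclei and leaving out cluster 4. PNLIP missed it with a UMI limit of 1300 and in nuclei of 1000 to 2000 UMIs. CELA2A and CTRC missed it after free-RNA subtraction. Other enzyme genes, named here after their values were seen, were within 2-fold in the main setting. The lipase gene CEL was 6938 CPM in WT and 6991 CPM in PIGinH11, the colipase gene CLPS was 4356 and 2711 CPM, and the elastase gene CELA1 was 37.6 and 42.8 CPM. CLPS was past the limit in the settings that PNLIP missed, in thinned nuclei and as a mean over nuclei. CELA1 was past it after free-RNA subtraction. PLA2G1B, at -0.99 in the main setting, was past it in the settings named for CLPS and in several others. Over the 4 companion lists and the secretory list, 11 of 41 genes were past the limit, 5 upwards and 6 downwards. Relative to the median of all genes, 2 were past it upwards and 11 downwards, where 10.7% and 3.77% of all genes were.

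The genes whose levels ran most like each factor across the 8 classes and 2 libraries were then listed. Pearson r was taken over these 16 points on log2 of the CPM plus 5. It covered 8866 genes with at least 100 UMIs in the acinar-like nuclei of each library. The points share libraries, depth and the acinar RNA found in all classes, so r is a description. For RBPJL the leading genes were EXTL1 (r = 0.977), GP2 (0.975), SLC43A1, MKNK1 and ADAD1 (0.966), and EXTL1 and ADAD1 are acinar naming markers. For NR5A2 they were ZC3H7B (0.938), GRHL2 (0.923), an epithelial factor, KCNQ1, ARHGAP8 and JADE3. The r between RBPJL and NR5A2 was 0.280, whereas that between RBPJL and FOXP2 was 0.879 and that between RBPJL and GATA4 was 0.874.

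For FOXP2 the leading genes were GRID1 (0.944), EFEMP1, MIA3, ZRANB2 and CABLES1, and for GATA4 they were IBTK (0.938), TBC1D22B, SLC31A2, SYTL5 and ADAD1. MKX ran most like PRDX4 (0.941), a peroxiredoxin of the endoplasmic reticulum, followed by PIK3C2G, the cholecystokinin receptor gene CCKAR, TRAM1 and REEP5. For PTF1A, whose counts were low in most classes, the highest values were lower, from 0.894 for ALDH18A1 to 0.855 for UBE3C, with SYVN1, TMEM214 and SLC1A4 between them.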

How the data were processed

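Nuclei of 1 WT and 1 PIGinH11 pancreas were sequenced with a 3′ droplet kit. The authors deposited raw UMI counts per gene and barcode, made with Cell Ranger on Sscrofa11.1 (the processing notes and methods name version 3.1.0, the file header 5.0.0), with cells called by EmptyDrops and before doublet removal. UMI counts, with 15410 of 31908 genes lacking a symbol, were read as deposited, and 841 genes were named from RefSeq.

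The filter kept barcodes of under 13000 UMIs, 270 to 3700 genes and under 10% mitochondrial UMIs, while a limit of 1300 UMIs, as the methods give it, was run as an alternative. Scrublet scores (scanpy 1.11.5) were used to remove the highest 0.8% per 1000 barcodes. Nuclei were clustered on 2000 variable genes per library, without the 6 factors, listed genes, 60 ribosomal protein and 13 mitochondrial genes, with 30 principal components, Harmony in numpy and Louvain at resolution 1 (igraph 0.11.9). Clusters were named from at least 3 markers, many of which the study chose on these libraries. Endocrine-like nuclei were clustered again, and a cluster that best matched the acinar markers was left unnamed.

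UMIs were summed per class and library and given as CPM. With 1 library per group, no test was run, and a gene was called at a 2-fold difference when each library had at least 20 UMIs. Intervals at 95% were exact Poisson for levels, conditional binomial for ratios, and cover counting error only. The ratio between the libraries, its interval and the 2-fold call were tested on simulated counts of acinar-like nuclei, and the other steps were not. Coordinates are those of RefSeq on Sscrofa11.1, and none of the 6 loci overlaps another RefSeq gene. The factors and gene lists were chosen with earlier results of these data known. PRSS3, CELA3B, CTRB1, CTRB2, AMY2, ZG16, INSM1 and LAMA2 matched no symbol, and 1 listed gene is not reported here. Named genes were all 6 factors, listed genes past 2-fold and the 5 genes most like each factor. Alternatives covered doublets, limits on nuclei, clustering, scaling, denominator, weighting, depth and free RNA, and 2 were added after seeing the data: leaving out acinar-like cluster 4 and counting the unnamed cluster as acinar-like. The ductal-like ratios were also recomputed under the other alternatives after seeing the data.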

Additional observations from a re-analysis of the deposited data

Results flagged for a closer look

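The factors and the listed genes outside the secretory list were screened where each library had at least 20 UMIs in both classes. For 6 of these genes, the PIGinH11 over WT log2 ratio had an interval on one side of 0 in acinar-like nuclei and on the other side in ductal-like nuclei. The share of all genes that met this rule was not computed, so the count does not set these lists apart. With 1 library per group, the difference between the classes was not tested for any of them. FOXP2 was -0.029 in acinar-like and 1.18 in ductal-like nuclei. Its acinar-like ratio ran from -0.25 to 0.10 over 14 alternative settings and kept its sign in 10 of them. In nuclei of 1000 to 2000 UMIs, the acinar-like level of FOXP2 was above the ductal-like level by 2.74 in WT and by 2.59 in PIGinH11 on the log2 scale, where all nuclei gave 3.86 and 2.66, and the ratio of the libraries in ductal-like nuclei was 0.25 (-0.05 to 0.56) at that depth, which no longer passed the 2-fold limit. GATA6, the family relative of GATA4, was 0.36 in acinar-like and -0.56 in ductal-like nuclei. HNF4G, a nuclear receptor, was -0.44 and 0.18. HES1, a target of Notch signalling, was -0.94 and 1.12. PROX1, a homeodomain factor of pancreatic growth, was 0.41 and -0.89. TEAD1, the DNA-binding partner of YAP, was 0.44 and -0.20.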

How the results depend on the processing

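No paired analysis was possible because each group has 1 library, and no replicate could be left out. The number of factors highest in acinar-like nuclei was 4 to 6 over 12 alternatives. It was 4 with a UMI limit of 1300, where MKX was not highest either and the stellate-, mural- and macrophage-like classes were missing. It was 6 without secretory, ribosomal protein and mitochondrial genes in the denominator, where NR5A2 was also highest in acinar-like nuclei. The number of companion genes past 2-fold was 8 to 13. The number of factors past 2-fold was 0 with a UMI limit of 1300, with nuclei of 1000 to 2000 UMIs and without acinar-like cluster 4, where MKX was -0.57, -0.84 and -0.95. In ductal-like nuclei, over settings added after seeing the data, the number past 2-fold was 0 with a UMI limit of 1300, with nuclei of 1000 to 2000 UMIs and after free-RNA subtraction, which gave no ratio for RBPJL, FOXP2, GATA4 and MKX there, and 2 in the other 9 settings, where FOXP2 (0.86) gave way to PTF1A without doublet removal. The median ratio of the 6 factors became 0.33 with a UMI limit of 1300, -0.083 with median-of-ratios scaling, 0.10 without secretory, ribosomal protein and mitochondrial genes in the denominator, 0.28 with nuclei of 1000 to 2000 UMIs, -0.059 after free-RNA subtraction, and 0.19 with the unnamed cluster counted as acinar-like. Of 15721 testable genes, 2611 were at least 2-fold higher and 343 lower in PIGinH11, against 1685 and 593 with median-of-ratios scaling. Other settings left fewer testable genes. The counts were 729 and 774 of 4366 after free-RNA subtraction, and 893 and 276 of 10694 with thinned nuclei. They were 315 and 299 of 7621 with a UMI limit of 1300, and 342 and 290 of 10071 with nuclei of 1000 to 2000 UMIs. The background shares of 16.6% higher and 2.18% lower thus belong to the main setting. The higher share was smaller in thinned nuclei, with a UMI limit of 1300 and in nuclei of 1000 to 2000 UMIs. The lower share was larger in all these settings. RBPJL in the unnamed endocrine group of WT was 3.75 with a gene minimum of 500, 3.80 without Harmony, 2.14 as a mean over nuclei, 1.02 in thinned nuclei and -0.58 in nuclei of 1000 to 2000 UMIs, and NR5A2 there was 1.23 in the last setting. RBPJL in that group of PIGinH11 was 3.43 without doublet removal, 3.31 with a UMI limit of 1300, 3.62 with all genes among the clustering genes, 3.73 as a mean over nuclei and 3.58 in thinned nuclei. The cause of these shifts was not tested. The unnamed endocrine comparison gave no value after free-RNA subtraction, nor in WT with a UMI limit of 1300. PTF1A is limited by its low counts.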

Other observations

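An acinar-like cluster led by genes of dividing cells, among them CENPF and TOP2A, held 1 WT and 35 PIGinH11 nuclei. Its PIGinH11 nuclei had 18 MKX UMIs, or 224 CPM, above the 37.4 to 67.9 CPM of the other acinar-like clusters of that library, and 141 RBPJL UMIs, or 1753 CPM. This cluster was singled out after its values were seen, and its WT part of 1 nucleus allows no comparison.

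The unnamed cluster led by digestive enzyme genes differed between the libraries in the acinar factors. Its 350 WT nuclei, with a median of 3041 UMIs, had RBPJL at 84.2 CPM, NR5A2 at 41.7 CPM and FOXP2 at 127 CPM, while its 515 PIGinH11 nuclei, with a median of 606 UMIs, had RBPJL at 2241 CPM, NR5A2 at 757 CPM and FOXP2 at 1057 CPM. The acinar naming markers stood at 2.56% to 17.4% of their acinar-like level in the WT nuclei and at 50.1% to 130% in the PIGinH11 nuclei. Secretory genes took 61.1% of the UMIs of this cluster in WT and 11.4% in PIGinH11, which lowers the CPM of every other gene in WT, and the part of this share in the contrast was not tested.

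The chymotrypsin-like protease gene CTRL had 9 UMIs in WT and 1022 UMIs in PIGinH11 acinar-like nuclei, and was not called because WT lay under the minimum of 20 UMIs.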
